A study of Mus musculus with 28 samples.

Results

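Macrophages sorted from the mouse pancreas at day 0 of acute pancreatitis (group D0) were compared with those of the group labelled NC, gene by gene. The comparison uses 8 of the 28 RNA-seq libraries of the series, the 5 labelled D0 and the 3 labelled NC, chosen by label alone. It takes in the 11960 of 25301 genes that reached 1 FPKM in at least 3 of the 28 libraries. FPKM count the fragments that a transcript gave, per kilobase of its length and relative to the depth of its library. All mice were wild-type C57BL/6J, and D0 stands at the start of a recovery model in which pancreatitis was induced with caerulein. The labels do not give what NC stands for, what those mice received, the age of the mice or the antibodies of the sort, so NC is used as a name. Wherever the values of a gene are listed, they stand in the order NC 1 to NC 3 and D0 1 to D0 5. Whether each library is a mouse of its own is not stated either, so the p-values measure only the spread between these libraries, which may be technical. The other 20 libraries, from days 1 and 3 with PBS or lactate, entered only the estimate of that spread, the filter that chose the genes tested, and the scalings tried as alternatives.

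Caerulein is an analogue of cholecystokinin, and repeated doses overstimulate the acinar cells, which release digestive enzymes, become injured and die. The healthy pancreas holds long-lived resident macrophages, known by genes such as Timd4, Lyve1, Cd163 and Mrc1, beside macrophages rich in MHC class II. In injury, blood monocytes carrying Ly6C and the chemokine receptor Ccr2 enter the tissue and become macrophages that take up dead cells, secrete chemokines and remodel the matrix. A macrophage that secretes and digests much depends on protein folding in the endoplasmic reticulum (ER), on the proteasome and on lysosomes.

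The libraries were deep and the D0 libraries held fewer detected genes. The values corresponded to 36633038 to 38068953 fragments per NC library and 40303153 to 41023424 per D0 library, while 10968 to 11133 genes reached 1 FPKM in the NC libraries and 9531 to 9832 in the D0 libraries. Pearson's r of log2(FPKM + 1) across genes, which are not independent replicates, ran from 0.990 to 0.992 within NC, from 0.987 to 0.996 within D0 and from 0.879 to 0.918 between the groups. D0 3 was the library least like the others of its group (median r 0.988 with them). The part of depth and of detected genes in the results below was not tested.

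Macrophage markers were detected in both groups, and RNA typical of other pancreatic cells differed between them. All 12 macrophage markers listed (among them Lyz2, C1qa and C1qb) reached 1 FPKM in both groups, with a summed level of 15586 to 17113 FPKM in NC and 11880 to 13072 in D0. Their mean log2(FPKM + 1) was 8.65 ± 0.10 (SD, n = 3) in NC and 8.81 ± 0.11 (SD, n = 5) in D0 (two-sided exact permutation p = 0.107, adjusted p = 0.124 over 15 marker lists). After median-ratio scaling this mean was higher in D0 by 0.38 (adjusted p = 0.0206 by the same permutation test). Of the 12 markers, 3 were higher in D0 (25%, against 19.7% of all genes tested), among them Cd68. Another 3 were lower (25%, against 41.4%), among them C1qa and Csf1r. Adgre1, which encodes F4/80, had 302, 275 and 402 FPKM in NC and 345, 314, 249.8, 301 and 354 in D0, overlapping ranges (-0.05, adjusted p = 0.872 by limma). Cd68, a lysosomal glycoprotein of macrophages, had 347, 397 and 395 FPKM in NC and 1071, 871, 832, 782 and 905 in D0, so that each D0 library lay above each NC library (1.23, adjusted p = 3.16e-05).

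Acinar RNA was the largest of these differences. The 20 acinar markers summed to 7334 to 11695 FPKM in NC and 466 to 899 in D0, and 19 of them were lower in D0 (95%, against 41.4% of all genes tested). Cela2a, a pancreatic elastase, had 1598, 1037 and 955 FPKM in NC and 74.8, 51.5, 44.3, 52.2 and 39.8 in D0, and Pnlip, the pancreatic lipase, had 1233, 753 and 703 FPKM in NC and 43.03, 24.9, 25.9, 30.03 and 18.1 in D0, with no overlap between the groups for either gene. Trypsin genes are near-identical copies, so their single values are uncertain. B cell markers (10 of 10 lower), plasma cell markers (6 of 7 tested), T cell markers (10 of 10), natural killer cell markers (8 of 10), dendritic cell markers (12 of 12) and endothelial markers (6 of 9 tested) were lower in D0 as well. Their summed levels were 332 to 392 FPKM against 18.8 to 76.3 for B cells, 211 to 255 against 12.4 to 17.1 for plasma cells, 111 to 212 against 7.62 to 47.9 for T cells, and 224 to 282 against 28.5 to 59.4 for dendritic cells, always NC before D0. Fibroblast markers were lower in 3 of 12 (25%, under the 41.4% over all genes tested) and higher in 1. Mast cell, eosinophil and islet markers were low, with summed levels of 0.101 to 10.05 FPKM over both groups. Natural killer cell markers summed to 40.9 to 54.3 against 10.5 to 16.6 FPKM and endothelial markers to 28.1 to 40.8 against 9.77 to 17.2.

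Neutrophil markers were higher in D0, with 8 of 13 tested higher (61.5%, against 19.7% of all genes tested) and 1 lower. Their summed level was 112 to 235 FPKM in NC and 441 to 934 in D0. S100a8, a calcium-binding protein of neutrophils and monocytes, had 14.7, 21.9 and 47.3 FPKM in NC and 125, 225, 79.1, 176 and 134 in D0 (log2 fold change 2.44, SE 0.68, adjusted p = 0.00345). The surface marker Ly6g and the granule genes Camp, Ltf, Elane and Mpo were below 1 FPKM in all 8 libraries, while Lcn2 (5.06, adjusted p = 5.40e-09) and Mmp8 (4.6, adjusted p = 1.52e-11), whose products are also stored in neutrophil granules, were among the 8 that were higher.

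Of the 8 duct markers tested, 3 were higher and 2 lower. The list summed to 46.1 to 73.9 FPKM in NC and 1262 to 2848 in D0, of which Spp1 alone made up 1252 to 2827. Besides Spp1, the keratin genes Krt18 (1.19, adjusted p = 0.0361) and Krt8 (1.27, adjusted p = 0.0444) were higher, at 2.87 to 9.65 FPKM in D0. Without D0 1, D0 2, D0 3 or any 1 of the NC libraries, 1 duct marker in place of 3 was higher, and without D0 4 there were 2. Sox9, a transcription factor of duct cells, and Krt7, a duct keratin, were below 1 FPKM in all 8 libraries. In mean level, the acinar, islet, fibroblast, endothelial, B cell, plasma cell, T cell, natural killer cell, dendritic cell, neutrophil and eosinophil lists each differed with a two-sided exact permutation p of 0.018, the smallest that 5 against 3 libraries allow (adjusted p = 0.024 over 15 lists). The duct list was higher in D0 by 0.42 (exact permutation p = 0.036, adjusted p = 0.045), with Spp1 as 1 of the 10 genes averaged. By the same test the duct list did not pass with a pseudocount of 0.1 (0.17, adjusted p = 0.402). Nor did it pass without any 1 of D0 1 to D0 4 (adjusted p = 0.0714 each). The mast cell and basophil list (-0.03, exact permutation p = 0.75) and the erythroid and platelet list (-0.03, exact permutation p = 0.768) did not pass the test. In bulk RNA, fewer cells of a type and less RNA per cell cannot be told apart, and FPKM are relative to the whole library. The part of these other cells in the results was not tested.

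**Figure D1:**
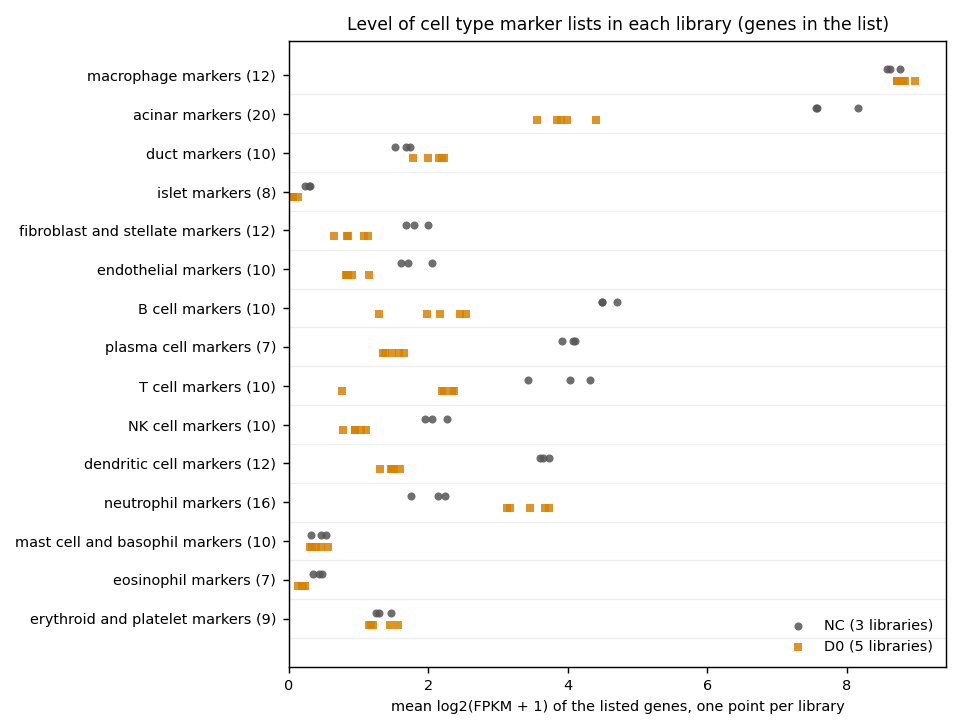
Mean log2(FPKM + 1) of each marker list in each library (horizontal axis), with the number of genes in the list in parentheses; circles are the 3 NC libraries and squares the 5 D0 libraries. Acinar, lymphocyte and dendritic cell markers lie lower in every D0 library, neutrophil markers lie higher, and the macrophage markers overlap.

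Most genes differed between the groups. A gene is called here when its adjusted p by limma (Benjamini-Hochberg over the 11960 genes) is below 0.05, and its log2 fold change is the D0 mean minus the NC mean of log2(FPKM + 1), a scale that understates the change of low genes. By this rule 2361 genes (19.7%) were higher and 4948 (41.4%) lower in D0, and the median log2 fold change over all genes tested was -0.22. All 5 D0 libraries lay above all 3 NC libraries in 2595 genes (21.7%) and below them in 5579 (46.6%). The balance of the calls depended on the scaling: median-ratio scaling gave 3597 higher and 3858 lower and raised the median log2 fold change by 0.18, and quantile normalization gave 3558 and 2755 and raised it by 0.27. Between the first of these and the values given here, no gene was called higher in 1 and lower in the other. Under quantile normalization 100 genes were. Changes of direction among genes not called in both were not counted. Each share below is therefore to be read against 19.7% and 41.4%, and each log2 fold change against -0.22.

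Large changes were more often losses. Among called genes, 571 were higher and 1690 lower by at least 1 on the log2 scale, and 16 were higher and 40 lower by at least 4. A mean of 1 FPKM was reached in D0 alone by 173 of the genes tested and in NC alone by 1496. At 100 FPKM the counts went the other way, since 718 genes had a mean of at least that level in D0 and 561 in NC. A mean of at least 10 FPKM was found for 4942 genes in D0 and 5385 in NC. For 1000 FPKM the counts were 39 in D0 and 44 in NC.

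**Figure D2:**
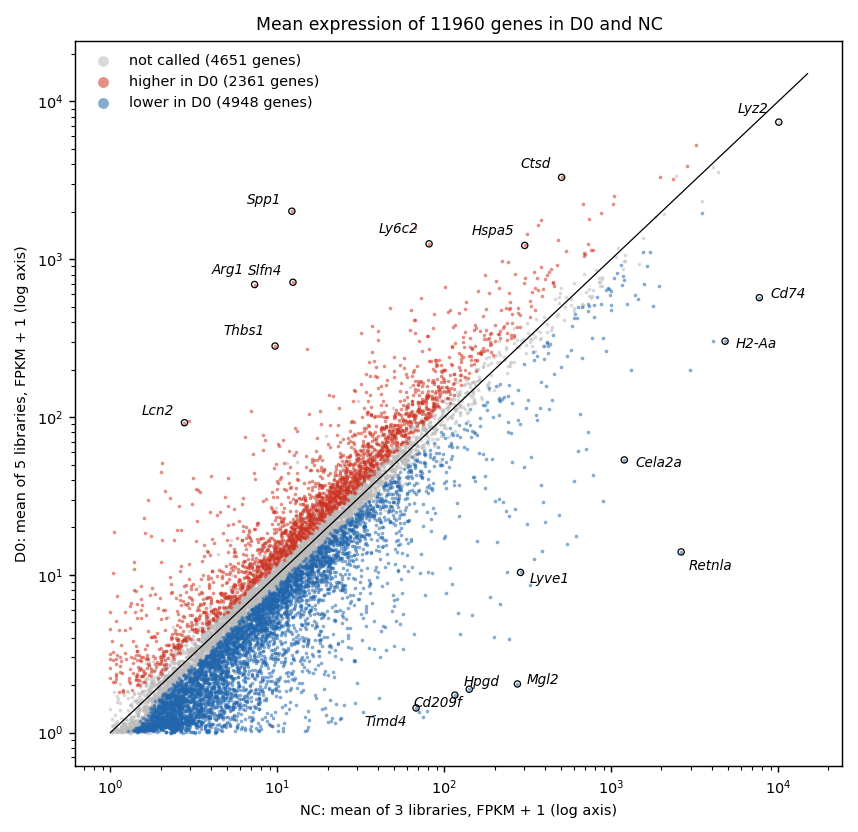
Mean FPKM + 1 of the 11960 genes tested in NC (horizontal log axis, 3 libraries) and D0 (vertical log axis, 5 libraries), coloured by the limma call, with the line of equal means. Genes called lower (4948) form a broad band under the line at low and middle levels, and Spp1, Arg1 and Slfn4 stand far above it.

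Spp1, Arg1 and Slfn4 had the highest log2 fold changes of all genes tested. Spp1, which encodes the matrix phosphoprotein osteopontin and is also one of the duct markers above, had 11.03, 14.6 and 8.02 FPKM in NC and 2827, 1888, 2715, 1393 and 1252 in D0. No D0 library came near the NC range, and D0 4 and D0 5 were the lowest of their group (log2 fold change 7.32, SE 0.52, adjusted p = 2.66e-11). Arg1, the cytosolic arginase that turns arginine into ornithine and urea, had 1.37, 16.6 and 0.958 FPKM in NC and 974, 832, 625, 669 and 351 in D0. NC 2 stood above the other NC libraries and still lay far below the lowest D0 library (log2 fold change 7.24, SE 0.78, adjusted p = 2.65e-08). Slfn4, a Schlafen gene of monocytes and macrophages, had 10.2, 17.7 and 6.35 FPKM in NC and 621, 508, 1320.0, 496 and 624 in D0, with D0 3 the highest (log2 fold change 5.85, SE 0.86, adjusted p = 3.44e-06).

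Lcn2, which encodes the iron-siderophore binding lipocalin 2, had 0.928, 2.16 and 2.25 FPKM in NC and 67.7, 115, 97.3, 101 and 74.9 in D0 (5.06). Thbs1, the matrix glycoprotein thrombospondin 1, had 6.95, 14.1 and 5.09 FPKM in NC and 285, 332, 303, 311 and 173 in D0 (4.93). Gpnmb, a lysosomal membrane glycoprotein, had 1.39, 2.76 and 1.696 FPKM in NC and 192, 79.5, 98.3, 48.5 and 51.6 in D0, with D0 1 the highest (4.85). None of these 3 genes overlapped between the groups. Chil3 (Ym1, a chitinase-like protein, 4.63), Mmp8 (neutrophil collagenase, 4.6), Lrg1 (a secreted leucine-rich glycoprotein, 4.47), Prtn3 (proteinase 3, 4.18), Tgm2 (tissue transglutaminase, 4.15), Pdpn (podoplanin, 4.11), Saa3 (a serum amyloid A protein, 4.1), Ly6c2 (4.05) and Ly6a2 (4.02) completed the 15 highest, the largest adjusted p being 1.50e-04 for Saa3 by limma. Saa3 was also uneven within NC, at 8.996, 181 and 6.03 FPKM, against 298, 518, 505, 445 and 295 in D0. Ly6 genes resemble each other, and fragments may have been shared among them.

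Among the 15 lowest genes were those of several lectins and of proteins that acinar cells secrete. Retnla, a secreted resistin-like protein of alternatively activated macrophages, had 2375, 3386 and 2108 FPKM in NC and 12.3, 15.7, 5.62, 20.5 and 10.7 in D0 (log2 fold change -7.63, SE 0.39, adjusted p = 8.05e-14). Mgl2, a galactose-binding lectin, had 266, 252 and 302 FPKM in NC and 0.821, 1.11, 1.27, 1.05 and 0.910 in D0, so that its D0 level was close to 1 FPKM (log2 fold change -7.07, SE 0.28, adjusted p = 1.92e-15). Hpgd, which degrades prostaglandins, had 113, 86.4 and 145 FPKM in NC and 0.602, 0.924, 0.585, 0.744 and 0.794 in D0 (-6.04). Cd209f (-6.23) and Cd209g (-5.72) are lectin genes with close copies, and Lyz1 (-5.13) is the near-identical partner of Lyz2 (-0.45, adjusted p = 0.0891), so the split among such copies is uncertain. Chp2 (-5.84), Ccn1, a matrix-associated growth regulator (-5.72), Fcna, a lectin of the complement pathway (-5.66), and Timd4 (-5.54) were the other macrophage or stromal genes. Rnase1, Cel, Cpb1, Zg16 and Pnlip, which acinar cells secrete, made up the rest with values from -5.94 to -4.94, and moved with the acinar markers above.

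**Figure D3:**
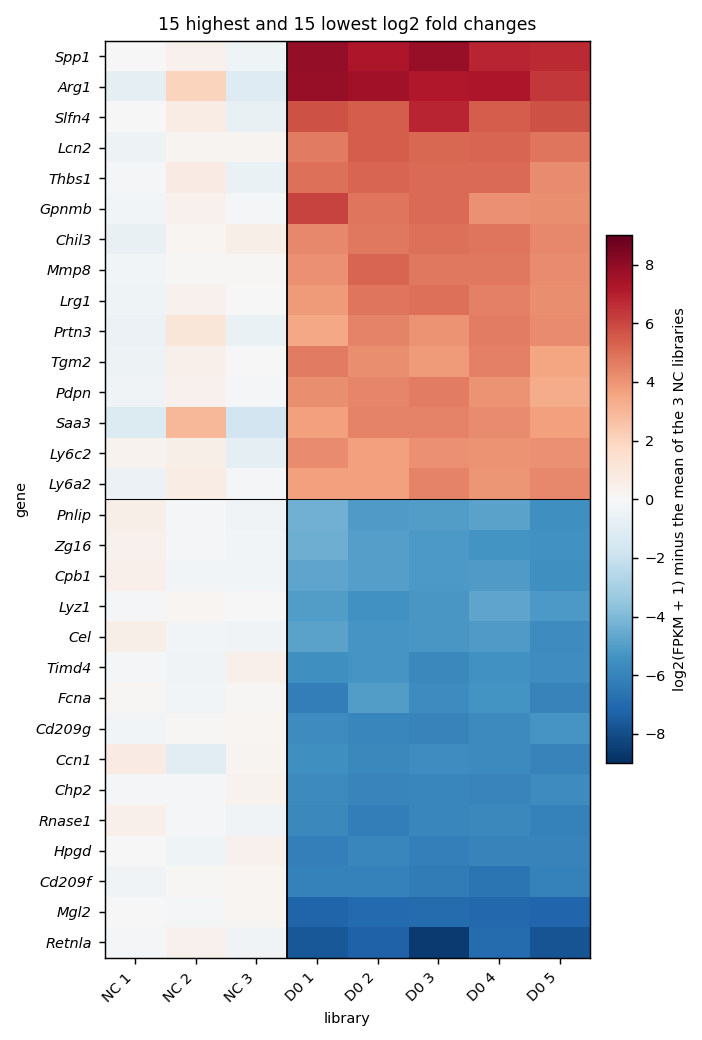
Log2(FPKM + 1) of each library minus the mean of the 3 NC libraries (colour scale) for the 15 highest and 15 lowest called genes with a mean of at least 5 FPKM in either group. Every D0 column has 1 sign in each block, Arg1 and Saa3 are higher in NC 2 than in the other NC libraries, and Gpnmb is highest in D0 1.

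Genes of tissue-resident macrophages were lost almost throughout. Of 24 listed and tested, 0 were higher and 21 lower in D0 (87.5%, background 41.4%), with a median log2 fold change of -3.07. Timd4, a phosphatidylserine receptor for dead cells, had 61.4, 51.2 and 87.9 FPKM in NC and 0.432, 0.652, 0.161, 0.539 and 0.384 in D0, below 1 FPKM in each D0 library (log2 fold change -5.54, SE 0.26, adjusted p = 2.33e-14). Lyve1, a hyaluronan receptor, had 307, 195 and 354 FPKM in NC and 5.42, 16.3, 12.6, 6.75 and 5.72 in D0 (log2 fold change -4.86, SE 0.39, adjusted p = 1.77e-10). Cd163, the haemoglobin-haptoglobin scavenger receptor, had 334, 226 and 372 FPKM in NC and 8.82, 39.98, 25.1, 16.9 and 9.56 in D0, with D0 2 and D0 3 keeping the most (log2 fold change -4.07, SE 0.45, adjusted p = 3.75e-08). Mrc1, the mannose receptor, kept more of its level, at 379, 353 and 541 FPKM in NC and 47.4, 181, 124, 101 and 105 in D0 (log2 fold change -2.01, SE 0.33, adjusted p = 1.23e-05). The 3 members not called were F13a1, Maf and Ninj1.

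Within each group, single libraries were often the highest or the lowest for these genes. NC 3 was the highest of the 3 NC libraries in 21 of the 24 genes, D0 2 the highest of the 5 D0 libraries in 13, and D0 1 the lowest in 13. Igf1 (-3.7), Pltp, a phospholipid transfer protein (-3.39), the eotaxin Ccl24 (-3.07), Gas6, the bridge between dead cells and the Axl and Mertk receptors (-2.81), the lectin Clec10a (-2.8) and the complement receptor Vsig4 (-2.34) were lower too, with a largest adjusted p of 7.32e-06 for Vsig4.

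MHC class II fell as a block. All 10 genes tested were lower, and the median log2 fold change was -3.31. None of their ranges overlapped, while 46.6% of all genes tested lay wholly below NC in D0. H2-Aa, the alpha chain of I-A, had 4415, 5408 and 4605 FPKM in NC and 402, 276, 237, 304 and 289 in D0 (log2 fold change -4.01, SE 0.22, adjusted p = 2.86e-13). Cd74, the invariant chain that guides class II to the endosome, had 7402, 8523 and 7222 FPKM in NC and 739, 493, 530.0, 526 and 561 in D0 (log2 fold change -3.77, SE 0.2, adjusted p = 1.43e-13). Ciita, the master transcriptional activator of these genes, had 42.5, 41.3 and 38.8 FPKM in NC and 3.29, 3.58, 3.23, 3.28 and 3.58 in D0, a narrow range in each group (log2 fold change -3.25, SE 0.24, adjusted p = 3.81e-11). D0 3 was the lowest D0 library in 9 of the 10 genes. B cell and dendritic cell markers, whose cells also carry class II, fell beside it (above), and their part in this loss was not tested. Few MHC class I genes were called. Of 15 genes for class I and its peptide loading, 2 were higher, Calr and Psmb10 (6 after median-ratio scaling), and 0 lower. H2-K1, a class I heavy chain with close copies, had overlapping values of 1067, 1157 and 963 FPKM in NC and 1166, 1035, 676, 1172 and 1146 in D0 (-0.06, adjusted p = 0.810).

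Monocyte genes were gained. Of 20 listed, 19 were tested, and 16 were higher (84.2%, background 19.7%) and 2 lower, Treml4 and the integrin gene Itga4, with a median log2 fold change of 2.10. Ly6c2, the surface antigen that marks inflammatory monocytes, had 94.02, 106 and 40.3 FPKM in NC and 1408, 953, 1326, 1264 and 1307 in D0 (log2 fold change 4.05, SE 0.67, adjusted p = 1.67e-05). Ccr2, the receptor for the monocyte attractant Ccl2, had 135, 227 and 148 FPKM in NC and 363, 436, 486, 462 and 434 in D0 (log2 fold change 1.38, SE 0.23, adjusted p = 1.89e-05). Vcan, the proteoglycan versican, had 0.443, 5.41 and 0.560 FPKM in NC and 14.6, 60.1, 38.7, 44.3 and 41.5 in D0, where NC 2 exceeded the other NC libraries and D0 1 fell below the other D0 libraries (log2 fold change 3.94, SE 0.52, adjusted p = 6.22e-07). Hp, which encodes haptoglobin, had 24.5, 38.8 and 29.3 FPKM in NC and 218, 347, 386, 367 and 393 in D0 (log2 fold change 3.42, SE 0.43, adjusted p = 3.44e-07). None of these 4 genes overlapped. Chil3, Clec4e, Clec4d and Ms4a4c belong here too, with log2 fold changes of 4.63, 2.98, 2.71 and 2.94. Hp, Clec4e and Clec4d are also expressed by neutrophils, whose markers summed to more in D0 as given above, and their part in these gains was not tested.

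Most regulators of macrophage identity were not called. Of 25 transcription factor genes, 4 were higher (16%) and 7 lower (28%), both under the shares over all genes tested, and the counts were 7 and 6 after median-ratio scaling. Spi1, which encodes the myeloid master factor PU.1, had 175, 194 and 191 FPKM in NC and 292, 291, 262, 331 and 308 in D0 (log2 fold change 0.66, SE 0.16, adjusted p = 8.21e-04). Irf4, a factor of alternative activation and of lymphocytes, had 28.1, 28.3 and 27.4 FPKM in NC and 1.63, 2.41, 1.29, 2.18 and 1.75 in D0 (log2 fold change -3.36, SE 0.25, adjusted p = 5.86e-11). Spic (-2.27) and Klf9 (-2.17) were lower. Csf1r, through which CSF1 keeps macrophages alive, had 758, 663 and 889.5 FPKM in NC and 331, 299.6, 315, 310.0 and 334 in D0, every D0 library below every NC library (log2 fold change -1.26, SE 0.2, adjusted p = 6.52e-06). Il4ra, the receptor chain for interleukin 4 and 13, had 37.1, 38.7 and 37.6 FPKM in NC and 157, 275, 178, 236 and 190.0 in D0 (log2 fold change 2.39, SE 0.18, adjusted p = 4.68e-11), although of 17 genes of alternative activation 5 were higher (Arg1, Chil3, Tgm2, Il4ra and Fn1) and 10 lower, with Retnla, Mgl2 and Mrc1 among the latter. Fn1, which encodes fibronectin, lost its call without NC 3 (0.93, adjusted p = 0.078).

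The Ccr2 ligands Ccl2, Ccl7 and Ccl12 rose. The monocyte attractant Ccl2 had 368, 334 and 231 FPKM in NC and 1439, 1402, 1208, 1597 and 1603 in D0 (log2 fold change 2.24, SE 0.36, adjusted p = 9.45e-06). Ccl7, which acts on the same receptor, had 213, 175 and 138 FPKM in NC and 865, 729.9, 759.7, 766 and 822 in D0 (log2 fold change 2.18, SE 0.41, adjusted p = 8.49e-05). Ccl12, another ligand of Ccr2, had 78.2, 71.1 and 105 FPKM in NC and 396, 271, 475, 262 and 436 in D0 (log2 fold change 2.08, SE 0.58, adjusted p = 0.00325). The 3 ligands were higher in every D0 library than in any NC library. Over the 21 chemokines outside the neutrophil-attracting group, 5 were higher (23.8%, background 19.7%), the 3 just given with Ccl9 and Ccl6. Lower were 8 (38.1%, background 41.4%), among them the B cell attractant Cxcl13 (-3.38), Cxcl12 (-2.05) and Ccl24. Both shares were near those over all genes tested.

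Of 4 tested chemokines that draw neutrophils through Cxcr2, 3 were higher, from low or variable levels. Cxcl3 had 0.375, 0.206 and 0.367 FPKM in NC and 2.83, 9.896, 1.28, 9.25 and 3.33 in D0, with D0 2 and D0 4 above the others (log2 fold change 2.01, SE 0.46, adjusted p = 6.32e-04). Ppbp had 1.21, 0.946 and 1.73 FPKM in NC and 2.76, 15.4, 2.26, 10.04 and 3.04 in D0 with the same libraries at the top (log2 fold change 1.44, SE 0.35, adjusted p = 0.00118). Cxcl2 had 165, 137 and 156 FPKM in NC and 285, 496, 219, 628 and 292 in D0 (log2 fold change 1.22, SE 0.5, adjusted p = 0.0372), and this call was lost when D0 2, D0 4 or any NC library was left out (1.02 to 1.28, largest adjusted p = 0.096). Cxcl1 had overlapping values (-0.55, adjusted p = 0.459).

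Receptors for chemotactic signals were largely gained. Of 14 tested, 8 were higher and 4 lower (57.1% and 28.6%), with a median of 1.35. Ccr1, a receptor for inflammatory CC chemokines, had 23.9, 44.04 and 35.9 FPKM in NC and 185, 243, 211, 258 and 222 in D0 (log2 fold change 2.69, SE 0.37, adjusted p = 1.13e-06). Fpr1, a receptor for formylated bacterial and mitochondrial peptides, had 3.03, 6.89 and 9.06 FPKM in NC and 31.9, 34.8, 36.7, 45.7 and 49.5 in D0 (log2 fold change 2.55, SE 0.33, adjusted p = 6.06e-07). Cxcr2, which neutrophils carry at a high level, had 1.34, 1.88 and 3.54 FPKM in NC and 11.2, 23.7, 7.78, 19.7 and 14.6 in D0 (log2 fold change 2.3, SE 0.56, adjusted p = 0.00109). Cx3cr1 (-1.0, adjusted p = 0.00349), Ccr7 (-1.93, adjusted p = 4.51e-04) and Cxcr3, a receptor of T cells (-2.49, adjusted p = 1.42e-05), were lower, the last 2 beside the dendritic and T cell markers.

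The classical inflammatory cytokines Tnf, Il1b and Il6 were not called. Tnf had 34.1, 21.4 and 23.7 FPKM in NC and 26.7, 24.5, 23.1, 34.96 and 24.5 in D0, fully overlapping (0.03, adjusted p = 0.944). Il1b had 134, 139.5 and 119 FPKM in NC and 123, 190.1, 115, 293 and 173 in D0, also overlapping, with D0 4 the highest (0.37, adjusted p = 0.437). Il6 had 6.84, 4.996 and 3.51 FPKM in NC and 1.71, 2.89, 3.03, 6.44 and 3.12 in D0 (-0.51, adjusted p = 0.354), and Nos2, the inducible nitric oxide synthase, was below 1 FPKM in all 8 libraries. Of 17 cytokine genes tested, 2 were higher (11.8%) and 5 lower (29.4%), both under the shares over all genes tested. Osm, which encodes oncostatin M and acts on stromal cells, had 13.004, 26.1 and 12.3 FPKM in NC and 96.3, 104, 87.8, 154 and 96.7 in D0 (log2 fold change 2.63, SE 0.28, adjusted p = 1.94e-08), and Tnfsf14, which encodes LIGHT, was the other (1.73).

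In the interleukin 1 system 9 of 19 genes were higher (47.4%, background 19.7%) and 3 lower, and the ligands Il1a and Il1b were not called. The count of higher genes was 6 without NC 1, 6 without NC 3 and 5 without both NC 2 and D0 3. Il1r2, the decoy receptor, had 1.05, 0.932 and 1.14 FPKM in NC and 10.6, 25.4, 14.6, 16.1 and 10.8 in D0 (log2 fold change 2.95, SE 0.34, adjusted p = 7.37e-08). Pycard, the inflammasome adaptor ASC, had 25.05, 33.7 and 24.5 FPKM in NC and 88.5, 98.9, 68.9, 109 and 95.7 in D0 (log2 fold change 1.69, SE 0.17, adjusted p = 9.12e-09), and Mefv, which encodes pyrin, rose by a log2 fold change of 1.74. The inflammasome genes divided: Nlrp3, Naip2 and Gsdmd were also higher, the 3 lower genes were the sensors Nlrp1b (-0.9), Aim2 and Nlrc4, and Casp1, Casp4 and Naip5 were not called.

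Transcripts of the immediate-early response were lower. Of 25 AP-1 and immediate-early genes tested, 18 were lower (72.0%, background 41.4%) and 1, Ier3, higher, with a median of -0.99. Fos had 1821, 1557 and 1762 FPKM in NC and 1024, 967, 952, 1415 and 1197 in D0 (log2 fold change -0.64, SE 0.2, adjusted p = 0.00876), a call lost after median-ratio scaling (-0.41, adjusted p = 0.101) and quantile normalization (-0.45, adjusted p = 0.0562). Jun had 437, 407 and 509 FPKM in NC and 189, 191, 197, 186 and 168 in D0 (log2 fold change -1.27, SE 0.2, adjusted p = 6.32e-06). Egr1, a zinc finger factor induced within minutes of a stimulus, had 717, 538 and 701 FPKM in NC and 80.5, 89.2, 78.9, 150.4 and 116 in D0 (log2 fold change -2.68, SE 0.35, adjusted p = 6.17e-07). Klf2 (-1.79), Klf4 (-1.82), Jund (-1.73) and Egr2 (-2.99) were lower as well. NC 1 was the highest NC library in 21 of the 25 genes and D0 4 the highest D0 library in 18.

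Of 19 genes of NF-kB and its feedback, 2 were higher and 11 lower (57.9%), with a median of -0.42. Traf1 (-2.07, adjusted p = 1.96e-06), Relb (-1.42, adjusted p = 1.56e-05), Birc3 (-1.09, adjusted p = 2.68e-08) and the mRNA-destabilising Zfp36 (-0.77, adjusted p = 4.46e-04) were lower by limma, and the inhibitor Nfkbia overlapped (-0.26, adjusted p = 0.360).

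**Figure D4:**
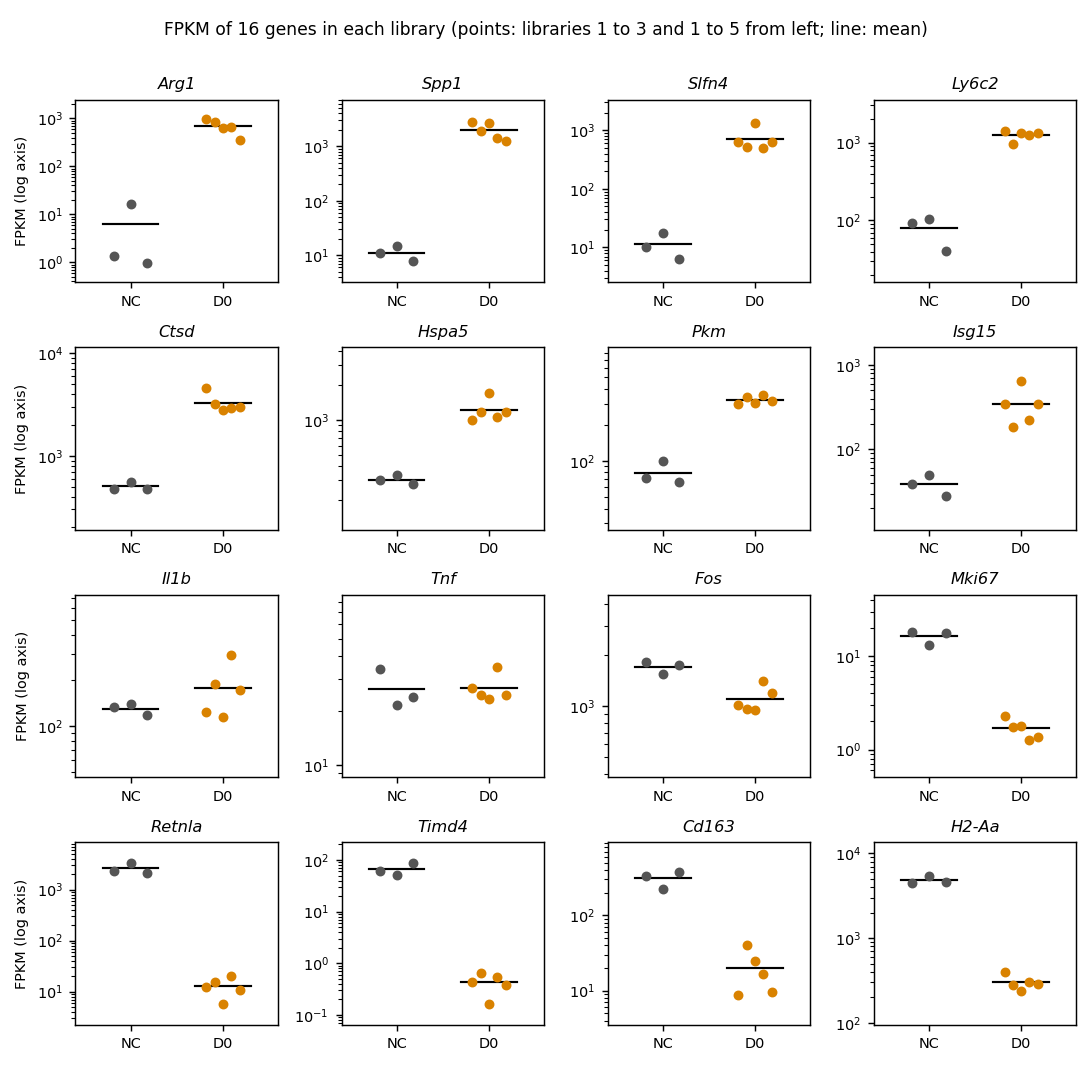
FPKM of 16 genes in each library on log axes whose ranges differ between panels; each point is a library (NC 1 to 3 and D0 1 to 5 from left) and each line the group mean. Arg1, Spp1, Slfn4, Ly6c2, Ctsd, Hspa5, Pkm and Isg15 lie higher in all D0 libraries, Tnf and Il1b overlap, and Fos, Mki67, Retnla, Timd4, Cd163 and H2-Aa lie lower.

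Interferon-stimulated genes rose, while most interferon-induced GTPases were not called. Of 25 listed, 23 were tested, and 16 were higher (69.6%, background 19.7%) and 0 lower, with a median of 1.90. In 22 of the 23 all D0 libraries lay above all NC libraries (21.7% over all genes tested). Isg15, a ubiquitin-like modifier, had 39.1, 49.96 and 27.9 FPKM in NC and 341, 183, 647, 224 and 343 in D0 (log2 fold change 3.02, SE 0.79, adjusted p = 0.00208). Irf7, the factor that amplifies type I interferon, had 78.9, 69.2 and 37.8 FPKM in NC and 529, 309, 692, 356 and 502 in D0 (log2 fold change 2.93, SE 0.68, adjusted p = 7.10e-04). Oas3, which makes the second messenger that activates RNase L, had 13.9, 15.8 and 6.73 FPKM in NC and 69.4, 58.9, 141, 54.9 and 76.2 in D0 (log2 fold change 2.61, SE 0.64, adjusted p = 0.00122). Oasl1 (2.66), Oasl2 (2.31) and Rtp4 (2.29) followed. D0 3 was the highest D0 library in 21 of the 23 genes and D0 2 the lowest in 19. Without D0 3, 12 of the 23 were higher and 0 lower, with a median of 1.58, and without NC 3 also 12. With D0 3 left out, the log2 fold change of Isg15 was 2.76, that of Irf7 2.78 and that of Oas3 2.39, with adjusted p of 0.00633, 0.00212 and 0.00397 by limma.

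Of the 7 Schlafen genes, 5 were higher and 0 lower. D0 3 was the highest D0 library in all 7 and D0 4 the lowest in 5. Slfn1 (2.87, adjusted p = 1.75e-04), Slfn5 (1.82, adjusted p = 0.00271), Slfn8 (1.56, adjusted p = 0.00451) and Slfn2 (1.15, adjusted p = 0.00116) rose with Slfn4, and the members of this family resemble each other in sequence. Without D0 3, 5 were again higher, Slfn4 by 5.6, Slfn5 by 1.58 (adjusted p = 0.00925) and Slfn8 by 1.35 (adjusted p = 0.0145). Among 14 interferon-induced GTPases, 1 was higher (7.14%) and 2 lower (14.3%), both under the shares over all genes tested. The higher one, Irgm1, lost its call without D0 3 (1.10, adjusted p = 0.0564), without NC 3 (adjusted p = 0.0862) and after quantile normalization (adjusted p = 0.0580). Gbp2 had overlapping values of 52.005, 63.3 and 37.1 FPKM in NC and 30.2, 16.3, 53.9, 17.97 and 31.7 in D0 (-0.84, adjusted p = 0.288). Cxcl10, a chemokine induced by both kinds of interferon, ranged over 26.2, 46.6 and 15.8 FPKM in NC and 103, 27.5, 317, 63.6 and 111 in D0, also with D0 3 at the top (1.73, adjusted p = 0.106).

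The promoters of these genes are shown since their transcripts moved together. RefSeq promoters (GRCm38.p6, 250 bases before to 50 after the start of the gene) were matched by symbol for 17 of the 23 genes. The core of the interferon-stimulated response element, searched as GAAANNGAAA on both strands, stood in 10 of their 20 promoters (50%) and in 3.44% of the 32851 promoters of the table. The 200 bases before the start are given for the 3 genes with the highest log2 fold change among those that hold it, 5′ to 3′ on the strand of the gene, with each match in capitals.
Isg15 (chr4:156200819-156201018, minus strand): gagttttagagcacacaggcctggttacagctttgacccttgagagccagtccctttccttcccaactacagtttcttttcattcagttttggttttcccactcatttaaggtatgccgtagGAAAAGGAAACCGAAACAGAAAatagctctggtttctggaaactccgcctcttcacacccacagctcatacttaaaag
Oas3 (chr5:120777660-120777859, minus strand): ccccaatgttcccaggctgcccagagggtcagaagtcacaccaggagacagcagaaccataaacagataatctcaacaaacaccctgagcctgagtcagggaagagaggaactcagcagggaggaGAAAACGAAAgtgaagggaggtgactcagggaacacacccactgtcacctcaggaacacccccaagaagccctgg
Oas1a (chr5:120907526-120907725, minus strand): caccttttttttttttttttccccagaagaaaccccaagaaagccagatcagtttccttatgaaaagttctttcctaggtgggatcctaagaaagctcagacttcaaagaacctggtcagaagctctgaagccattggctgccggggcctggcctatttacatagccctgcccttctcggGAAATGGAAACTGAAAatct
The run of capitals in Isg15 holds 3 overlapping matches, between 78 and 66 bases before the start, that of Oas3 begins 75 bases before it, and Oas1a (2.21) has 2 matches, at 20 and 14 bases before it. A match is a string of letters and was not tested for binding.

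Genes for folding and exporting proteins rose nearly as a whole. Of 34 ER genes, 30 were higher (88.2%, background 19.7%) and 1 lower, with a median of 0.94. D0 lay wholly above NC in 31 of them (21.7% over all genes tested). Hspa5, the ER chaperone BiP, had 299, 331 and 277 FPKM in NC and 1005, 1165, 1716, 1055 and 1174 in D0 (log2 fold change 1.99, SE 0.18, adjusted p = 2.16e-09). Creld2 had 33.8, 32.9 and 25.1 FPKM in NC and 127, 159, 208, 163 and 146 in D0 (log2 fold change 2.35, SE 0.32, adjusted p = 1.16e-06). Manf, a secreted ER stress protein, had 103, 124 and 96.2 FPKM in NC and 408, 463, 570.5, 459.9 and 496 in D0 (log2 fold change 2.14, SE 0.24, adjusted p = 5.37e-08). Hyou1 (2.06), Pdia6 (1.88), Sdf2l1 (1.74) and the transcription factor Xbp1 (0.94) rose as well. The exception was Herpud1, part of the degradation complex at the ER membrane, with 99.1, 94.6 and 91.8 FPKM in NC and 49.98, 56.7, 54.8, 40.1 and 43.4 in D0 (log2 fold change -0.96, SE 0.21, adjusted p = 4.47e-04).

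Library D0 3 was the highest D0 library in 28 of these 34 genes and D0 1 the lowest in 26. Without D0 3, 29 of the 34 were higher and 1 lower, with a median of 0.91, and Hspa5 was higher by 1.86. In the related amino acid stress response 4 of 24 genes were higher (16.7%) and 6 lower (25%), both under the shares over all genes tested. Its factor Atf4 had 123, 123 and 125 FPKM in NC and 115, 117, 102, 131 and 108 in D0 (-0.11, adjusted p = 0.427), and was called lower after quantile normalization alone (-0.38, adjusted p = 0.0114). Ddit3, which encodes CHOP, was not called (0.42, adjusted p = 0.0674), but was called higher after median-ratio scaling (0.62, adjusted p = 0.0161), after quantile normalization (0.63, adjusted p = 0.0179) and without D0 3 (0.51, adjusted p = 0.0297).

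The ER stress response element, searched as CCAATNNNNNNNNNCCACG on both strands, was found in 8 of the 28 RefSeq promoters matched for 26 of the 34 genes (28.6%) and in 39 of all 32851 (0.119%). The 3 of these genes with the highest log2 fold change are shown in the same way, with the match in capitals.
Creld2 (chr15:88819446-88819645, plus strand): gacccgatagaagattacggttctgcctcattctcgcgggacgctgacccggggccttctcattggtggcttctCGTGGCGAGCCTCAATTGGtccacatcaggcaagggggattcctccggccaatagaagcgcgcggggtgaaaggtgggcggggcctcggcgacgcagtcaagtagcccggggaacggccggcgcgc
Hspa5 (chr2:34771890-34772089, plus strand): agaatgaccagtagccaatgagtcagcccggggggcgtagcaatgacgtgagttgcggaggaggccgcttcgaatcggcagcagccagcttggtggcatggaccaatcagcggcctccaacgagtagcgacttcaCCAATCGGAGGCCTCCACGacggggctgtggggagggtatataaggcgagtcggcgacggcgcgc
Pdia6 (chr12:17266389-17266588, plus strand): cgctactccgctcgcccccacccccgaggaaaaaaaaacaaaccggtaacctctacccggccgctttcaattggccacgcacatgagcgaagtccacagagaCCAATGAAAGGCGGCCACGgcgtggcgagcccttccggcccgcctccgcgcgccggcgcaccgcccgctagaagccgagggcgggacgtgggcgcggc
The match begins 126 bases before the start in Creld2, where it is read on the opposite strand, 65 bases before it in Hspa5 and 98 bases before it in Pdia6. The other 5 promoters with a match were those of Calr, Hsp90b1, Canx, Dnajc3 and Syvn1.

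Every gene of the proteasome list was higher. The list leaves out the proteasome genes counted with MHC class I above, of which Psmb10 alone was called. The 31 genes of the list had log2 fold changes of 0.40 to 1.17 (median 0.74). In each of them all 5 D0 libraries lay above all 3 NC libraries (21.7% over all genes tested). Psma6, an alpha subunit of the core, had 87.3, 110.1 and 85.8 FPKM in NC and 217, 201, 188, 229 and 226 in D0 (log2 fold change 1.17, SE 0.14, adjusted p = 1.07e-07). Psmc1, an ATPase of the regulatory particle, had 67.8, 81.4 and 70.4 FPKM in NC and 152, 158, 154, 182 and 168 in D0 (log2 fold change 1.14, SE 0.11, adjusted p = 2.41e-09). NC 2 was the highest NC library for all 31. Ribosomal protein genes differed from this. Of 77, 0 were higher and 33 lower (42.9%, background 41.4%), with a median of -0.36. That count was 19 without D0 3, 16 without NC 2, 9 without both, 12 after median-ratio scaling and 50 after quantile normalization. D0 3 was the lowest D0 library in all 77 and NC 2 the highest NC library in 76. Rps4x had 782, 856 and 742 FPKM in NC and 437, 454, 369, 462 and 437 in D0 (log2 fold change -0.88, SE 0.14, adjusted p = 1.05e-05).

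Glycolytic genes rose, as did Hif1a. Of 20 glycolytic genes, 13 were higher (65.0%) and 2 lower, Pfkfb3 and Pfkm, with a median of 0.97. Pkm, pyruvate kinase, had 71.4, 98.9 and 66.5 FPKM in NC and 301, 343, 302, 355 and 319 in D0 (log2 fold change 2.04, SE 0.22, adjusted p = 1.83e-08). Slc2a1, the glucose importer Glut1, had 9.64, 12.997 and 7.96 FPKM in NC and 28.04, 38.4, 27.7, 41.6 and 30.7 in D0 (log2 fold change 1.62, SE 0.35, adjusted p = 3.28e-04). Slc16a3, the lactate exporter Mct4, had 7.54, 13.5 and 7.42 FPKM in NC and 33.2, 46.8, 30.01, 52.8 and 41.6 in D0 (log2 fold change 2.01, SE 0.32, adjusted p = 1.02e-05). D0 4 was the highest D0 library in 13 of the 20 genes. Eno1 (1.35), Pgk1 (1.24), Pgam1 (1.18) and Hk2 (0.75) rose too. Hif1a itself had 25.7, 36.8 and 31.2 FPKM in NC and 85.2, 107, 108, 105 and 87.5 in D0 (log2 fold change 1.63, SE 0.19, adjusted p = 6.55e-08), while of 17 hypoxia-response genes 6 were higher and 4 lower.

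Nuclear genes of the respiratory chain rose by smaller amounts, 50 of 74 higher (67.6%) and 0 lower, with a median of 0.54. Cox5b had 105, 148 and 119.8 FPKM in NC and 264, 239.5, 198, 263 and 265 in D0 (log2 fold change 0.98, SE 0.15, adjusted p = 7.02e-06). Ndufb7, a subunit of complex I, had 84.8, 97.98 and 76.5 FPKM in NC and 173, 158, 123, 169.8 and 178 in D0 (log2 fold change 0.88, SE 0.15, adjusted p = 2.72e-05). The count was 69 after median-ratio scaling, and 33 higher with 4 lower after quantile normalization. Most genes of the citrate cycle and itaconate were not called. Of 22, 5 were higher (22.7%, near the background) and 4 lower (18.2%), and the counts were 13 and 1 after median-ratio scaling and 2 and 5 after quantile normalization. Acod1, which makes itaconate, had 0.918, 4.69 and 1.64 FPKM in NC and 7.07, 6.47, 10.8, 6.24 and 6.67 in D0 (1.44, adjusted p = 0.138). In arginine metabolism 5 of 20 genes were higher (25%, background 19.7%), among them Arg1 and Arg2 (1.94, adjusted p = 1.65e-05 for Arg2). Lower were 5 (25%, under the background of 41.4%), among them the glutamine synthetase Glul (-1.3, adjusted p = 2.56e-04).

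Lysosomal proteases rose in 7 of 15 genes tested, some of them among the most abundant transcripts of D0. Ctsd, the aspartic protease cathepsin D, had 475, 559 and 478 FPKM in NC and 4574, 3218, 2817, 2913 and 2995 in D0 (log2 fold change 2.69, SE 0.29, adjusted p = 2.49e-08). Ctsl, the cysteine protease cathepsin L, had 32.1, 36.7 and 39.7 FPKM in NC and 398, 455, 313, 401 and 310.3 in D0 (log2 fold change 3.33, SE 0.29, adjusted p = 6.53e-10). Lgmn, the asparaginyl endopeptidase legumain, had 344, 346 and 403 FPKM in NC and 2087, 1707, 1334, 1592 and 1474 in D0 (log2 fold change 2.15, SE 0.25, adjusted p = 8.46e-08). All 3 genes had separate ranges, with D0 1 or D0 2 the highest. Ctsd had the 8th highest mean FPKM of all genes in D0. The 3 lower members were Ctsf (-4.26), Ctso and the inhibitor Cst3.

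Of 36 genes of the lysosomal membrane, its hydrolases and its proton pump, 19 were higher and 4 lower, with a median of 0.50. Atp6v1a, the catalytic subunit of the proton pump, had 30.5, 33.3 and 34.4 FPKM in NC and 77.5, 76.96, 81.8, 68.05 and 68.4 in D0 (log2 fold change 1.16, SE 0.16, adjusted p = 1.53e-06), Npc1, which carries cholesterol out of the lysosome, rose by 1.12, and Lamp1 was not called (0.38, adjusted p = 0.104; 0.61, adjusted p = 0.0354 after median-ratio scaling). D0 1 was the highest D0 library in 24 of the 36.

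The genes of lipid-associated macrophages were gained and lost in nearly equal number, 8 of 19 higher (42.1%, background 19.7%) and 7 lower (36.8%, background 41.4%). Trem2, a lipid-sensing receptor, had 35.2, 40.04 and 47.1 FPKM in NC and 239.7, 148, 125, 143 and 129 in D0 (log2 fold change 1.88, SE 0.35, adjusted p = 5.91e-05). Plin2, which coats lipid droplets, had 42.6, 54.4 and 40.9 FPKM in NC and 603, 523, 452, 399 and 462 in D0 (log2 fold change 3.38, SE 0.37, adjusted p = 4.05e-08). Against these, Lpl, lipoprotein lipase, had 84.7, 161 and 119.7 FPKM in NC and 21.6, 20.7, 15.5, 20.97 and 33.5 in D0 (log2 fold change -2.38, SE 0.26, adjusted p = 4.45e-08), and Apoe overlapped (-0.61, adjusted p = 0.170). D0 1 was the highest D0 library in 16 of the 19. Of 23 cholesterol synthesis genes, 7 were lower (30.4%, under the background of 41.4%) and 1, Ebp, was higher. The count of lower genes was 5 after median-ratio scaling and 4 after quantile normalization.

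Iron genes changed in both directions, with storage higher and export lower. The storage proteins Fth1, with 1886, 1957 and 1999.5 FPKM in NC and 4753, 3017, 2770.1, 3075 and 3108 in D0 (log2 fold change 0.75, SE 0.18, adjusted p = 0.00119), and Ftl1 (0.71, adjusted p = 0.00433) were higher, as was the haem-degrading Hmox1 (1.34, adjusted p = 1.80e-04). The metal importer Slc39a14 had 1.71, 2.55 and 2.04 FPKM in NC and 21.4, 31.6, 25.1, 31.2 and 26.3 in D0 (log2 fold change 3.18, SE 0.16, adjusted p = 8.05e-14). The iron exporter Slc40a1, ferroportin, had 14.8, 11.1 and 21.4 FPKM in NC and 1.17, 1.89, 0.844, 1.83 and 1.99 in D0 (log2 fold change -2.7, SE 0.34, adjusted p = 3.54e-07), and its partner ferroxidase Cp was lower too (-3.99, adjusted p = 1.71e-12). Over the list 7 of 16 were higher and 9 lower, so that every tested member was called. The count of lower genes was 7 after median-ratio scaling, 6 after quantile normalization and 7 without NC 3. Tfrc, the transferrin receptor, was among the lower ones (-0.68, adjusted p = 0.0138), a call lost without NC 3 (-0.51, adjusted p = 0.105).

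Matrix proteins and proteases rose in 16 of 24 genes (66.7%) and fell in 7, with a median of 1.63. Beside Spp1 and Thbs1, Timp1, an inhibitor of metalloproteinases, had 0.368, 1.36 and 0.0300 FPKM in NC and 18.5, 25.2, 24.6, 24.4 and 16.2 in D0 (log2 fold change 3.91, SE 0.34, adjusted p = 6.80e-10). Mmp19 had 6.22, 10.04 and 6.18 FPKM in NC and 36.4, 104, 60.97, 103 and 50.8 in D0 (log2 fold change 3.0, SE 0.31, adjusted p = 1.66e-08). Mmp8 had 0.746, 1.18 and 1.197 FPKM in NC and 33.8, 75.96, 52.6, 52.4 and 36.8 in D0 (log2 fold change 4.6, SE 0.32, adjusted p = 1.52e-11). Both metalloproteinases were highest in D0 2 among the D0 libraries. Mmp12, a macrophage elastase, had 4.299, 5.105 and 5.02 FPKM in NC and 0.0850, 0.118, 0.0585, 0.254 and 0.116 in D0 (log2 fold change -2.37, SE 0.39, adjusted p = 1.31e-05). The clotting factors F10, with 6.42, 19.7 and 5.76 FPKM in NC and 33.9, 55.2, 35.4, 55.9 and 36.9 in D0 (log2 fold change 2.1, SE 0.45, adjusted p = 3.44e-04), and F7 (1.89, adjusted p = 1.04e-04) rose with Tgm2 among 7 of 16 coagulation genes higher and 3 lower.

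Surface receptors for uptake and recognition changed in both directions. Among 23 scavenger and dead-cell receptors, 9 were higher (39.1%, background 19.7%) and 12 lower (52.2%, background 41.4%). Msr1, the class A scavenger receptor, had 19.4, 26.02 and 21.3 FPKM in NC and 80.04, 95.5, 81.5, 97.8 and 87.9 in D0 (log2 fold change 1.95, SE 0.26, adjusted p = 8.46e-07). Cd300lf had 7.55, 10.8 and 8.896 FPKM in NC and 74.3, 66.2, 74.2, 62.7 and 57.3 in D0 (log2 fold change 2.76, SE 0.35, adjusted p = 3.25e-07), against the losses of Timd4, Cd163 and Mrc1 above. Fcgr1, the high-affinity IgG receptor, had 58.3, 84.7 and 70.5 FPKM in NC and 547, 503, 657, 535 and 611 in D0 (log2 fold change 2.99, SE 0.44, adjusted p = 2.81e-06). Fcgr4 had 28.7, 46.7 and 34.8 FPKM in NC and 247, 199, 281, 204 and 205 in D0 (log2 fold change 2.61, SE 0.45, adjusted p = 2.51e-05), while Fcgrt, the neonatal Fc receptor, fell (-2.3, adjusted p = 3.89e-07). Clec4e and Clec4d, lectins that sense fungal and mycobacterial glycolipids and dead cells, rose, and Clec7a, the beta-glucan receptor, fell (-1.72, adjusted p = 7.74e-08). In pattern recognition 12 of 30 genes were higher and 3 lower, with Myd88 (1.86, adjusted p = 6.95e-08) among the former, and Tlr2 (0.34, adjusted p = 0.111) and Tlr4 (0.5, adjusted p = 0.0803) were not called, although both were after median-ratio scaling (0.57 and 0.72, adjusted p = 0.0276 and 0.0291). Itgam, the integrin CD11b, had 133, 193 and 151 FPKM in NC and 552, 751, 533, 671 and 652 in D0 (log2 fold change 1.99, SE 0.22, adjusted p = 4.04e-08), and Vcam1 (-2.75, adjusted p = 2.61e-06) and Itgax, CD11c (-1.78, adjusted p = 4.56e-06), were lower.

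Complement was lower in 10 of 18 genes (55.6%, background 41.4%) and higher in 5 (27.8%, background 19.7%), with a median of -1.29. The classical starter C1qa had 1399, 1198 and 1556 FPKM in NC and 953, 573, 482, 539.5 and 412 in D0, with D0 1 highest in its group (log2 fold change -1.28, SE 0.32, adjusted p = 0.00126). C4b (-3.26, adjusted p = 4.36e-11) and C2 (-2.94, adjusted p = 1.70e-10), which form the classical convertase, were lower. The alternative-pathway factor Cfb had 43.2, 68.7 and 35.4 FPKM in NC and 224, 152, 239.6, 167 and 192 in D0 (log2 fold change 2.0, SE 0.63, adjusted p = 0.00819), and C3 was not called (0.5, adjusted p = 0.215).

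Of 19 genes of prostaglandins and leukotrienes, 6 were higher (31.6%, background 19.7%) and 5 lower (26.3%, under the background of 41.4%). Ptgs2, the inducible cyclooxygenase, had 11.3, 13.97 and 11.9 FPKM in NC and 25.95, 43.3, 27.2, 65.8 and 32.7 in D0, with D0 4 the highest (log2 fold change 1.5, SE 0.41, adjusted p = 0.00319), while Ptgs1, the constitutive one, had 18.6, 21.9 and 24.95 FPKM in NC and 3.13, 4.95, 4.52, 6.29 and 5.79 in D0 (log2 fold change -1.96, SE 0.19, adjusted p = 4.63e-09). Alox5, which starts leukotriene synthesis, had 42.3, 37.7 and 62.4 FPKM in NC and 3.53, 6.45, 4.99, 4.398 and 5.12 in D0 (log2 fold change -3.02, SE 0.29, adjusted p = 4.63e-09), and the prostaglandin-degrading Hpgd was below 1 FPKM in D0 as shown above. Of 6 NADPH oxidase genes, 4 were higher, among them Cyba and Ncf4, and 0 lower, with 386, 495 and 392 FPKM in NC and 961, 839, 599, 883 and 895 in D0 for Cyba (log2 fold change 0.97, SE 0.17, adjusted p = 3.20e-05) and overlapping values for the catalytic Cybb (-0.44, adjusted p = 0.0883; -0.59, adjusted p = 0.0222 without D0 3).

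Antioxidant genes were higher in 9 of 21 tested (42.9%, background 19.7%) and lower in 4 (19%, background 41.4%). Prdx6, a peroxiredoxin, had 17.99, 21.6 and 17.6 FPKM in NC and 66.5, 68.5, 73.9, 67.3 and 54.9 in D0 (log2 fold change 1.75, SE 0.11, adjusted p = 4.89e-12), and Pgd, of the pentose phosphate pathway, rose by 1.3. Catalase, Cat, fell (-1.2, adjusted p = 4.33e-08). Growth factor genes were lower in 8 of 16 tested (50%, background 41.4%) and higher in 2 (12.5%, background 19.7%). Igf1 had 14.8, 14.2 and 26.1 FPKM in NC and 0.695, 0.373, 0.519, 0.263 and 0.355 in D0 (log2 fold change -3.7, SE 0.3, adjusted p = 3.09e-10), Pdgfb had 22.2, 21.4 and 22.998 FPKM in NC and 4.67, 2.07, 1.35, 2.67 and 2.39 in D0 (log2 fold change -2.74, SE 0.22, adjusted p = 1.85e-10), and Gdf3 rose (1.9, adjusted p = 2.39e-07).

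Transcripts of dividing cells were lower. Of 33 cell cycle genes, 29 were lower (87.9%, background 41.4%) and 1 higher, Ccnd3, with a median of -1.92. Mki67, the proliferation antigen, had 18.3, 13.4 and 17.8 FPKM in NC and 2.28, 1.77, 1.79, 1.26 and 1.35 in D0 (log2 fold change -2.7, SE 0.43, adjusted p = 1.06e-05). Top2a, the topoisomerase of dividing cells, had 27.3, 23.4 and 25.9 FPKM in NC and 3.61, 3.41, 2.98, 2.39 and 2.396 in D0 (log2 fold change -2.75, SE 0.42, adjusted p = 6.33e-06). Neither gene overlapped between the groups. B, T and plasma cell markers were lower in the same libraries, and their part in this difference was not tested.

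**Figure D5:**
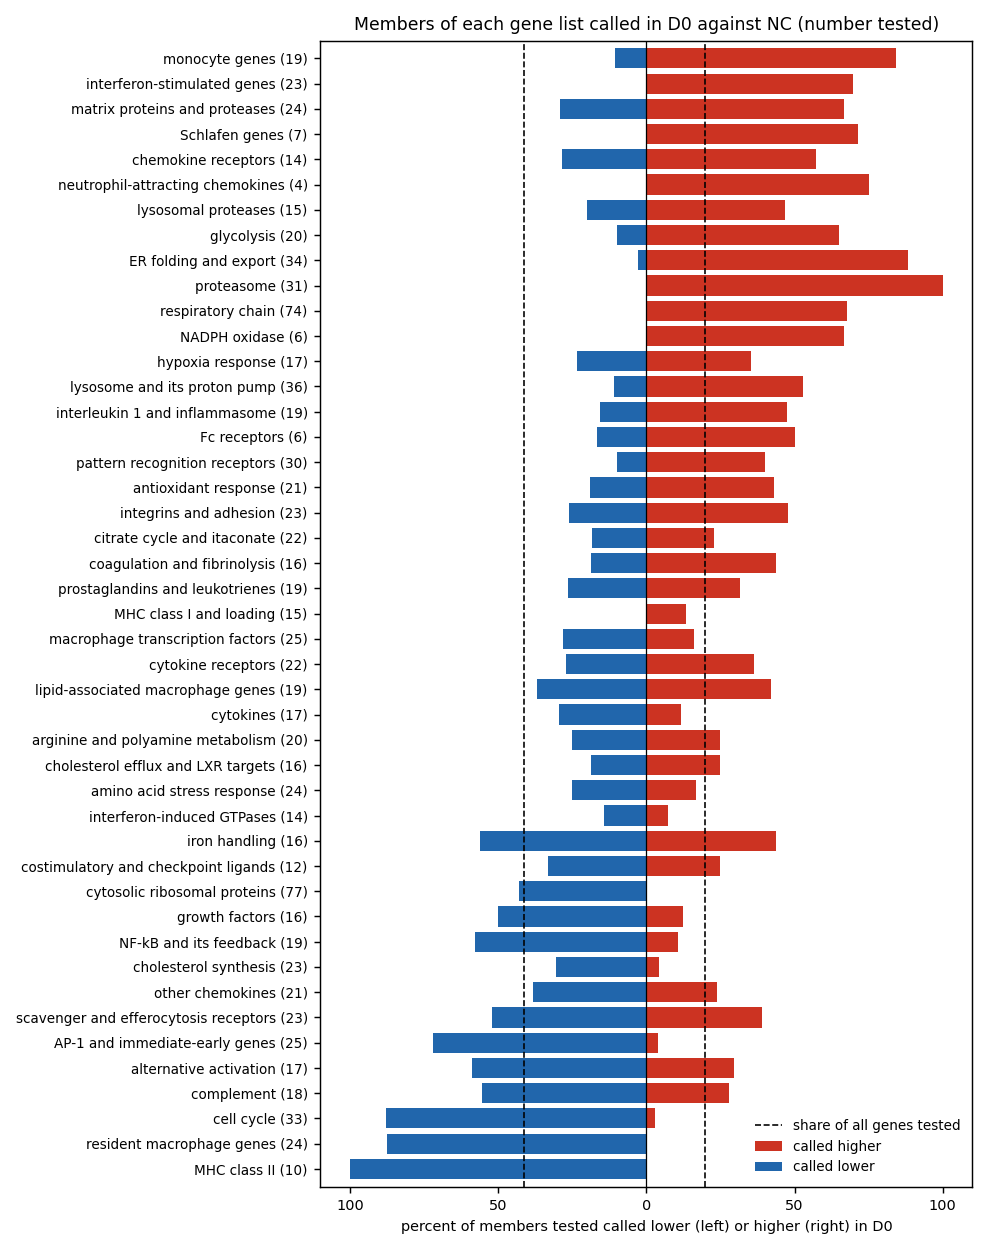
Percent of the tested members of each of the 45 gene lists called lower (left) or higher (right) in D0, with the number tested in parentheses; dashed lines mark the shares over all genes tested (41.4% lower, 19.7% higher). The proteasome reaches 100% on the right and MHC class II 100% on the left, and lists such as iron handling reach past both lines.

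The D0 libraries differed among themselves in a way that ran across lists. Over all genes tested, D0 1 was the highest D0 library in 3299 and D0 3 the lowest in 4783, and the other libraries were each highest in 1792 to 2667. D0 3 combined the highest interferon, Schlafen and ER values with the lowest values of ribosomal protein genes, T cell markers (10 of 10) and B cell markers (10 of 10). D0 1 was the highest in most genes of the lysosome and in 19 of 20 acinar markers. D0 4 was the highest in 18 of 25 immediate-early genes and 52 of 77 ribosomal protein genes. These orders are descriptions of 5 libraries, and their source was not tested. Leaving out D0 3 gave 2330 genes higher and 4643 lower, and leaving out both D0 3 and NC 2 gave 2211 and 4259.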

How the data were processed

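RNA of macrophages sorted from mouse pancreas (10 ng per library, RNeasy Micro and VAHTS Universal V6 kits, per the labels' protocols) was sequenced by the authors, and the deposited table holds FPKM per gene and library. The submitters' processing notes name fastp, a read trimmer, and R 3.2.0; the aligner, genome build, annotation and strand setting were not given in the sources used here. Deposited FPKM proved to be whole fragments times a constant per gene and library (100% of positive values whole within 0.0001), which gave the fragment totals. Groups were taken from titles.

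Genes at 1 FPKM or more in at least 3 of 28 libraries were tested with limma 3.58.1 (R 4.3.3) on log2(FPKM + 1): 6 group means, so that all 28 libraries share 1 estimate of the spread, moderation with trend and robust, the contrast D0 minus NC, two-sided, Benjamini-Hochberg adjustment, threshold 0.05. Every log2 fold change, SE and adjusted p of a gene in the text is from this fit. Marker lists were compared over libraries by two-sided exact permutation of 56 splits. No libraries of a group agreed within sampling noise. Tables and figures were made with Python 3.11.15, numpy 2.4.6, pandas 2.3.3 and matplotlib 3.10.9.

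The comparison, the 45 gene lists and the 15 marker lists were chosen with earlier results of these data known. Genes named are the 15 highest and 15 lowest called genes with a mean of 5 FPKM, the first 2 and up to 6 most changed called members of each list, the 10 most abundant genes per group, the 10 smallest p, and 3 markers per marker list. Named outside that rule, after their values were seen, were Adgre1, Aim2, Axl, Camp, Canx, Casp1, Casp4, Ccl6, Ccl9, Ccnd3, Cd68, Ciita, Cst3, Ctso, Cxcl10, Dnajc3, Ebp, Elane, F13a1, Gsdmd, Herpud1, Hsp90b1, Ier3, Itga4, Krt18, Krt7, Ltf, Ly6g, Maf, Mertk, Mpo, Naip2, Naip5, Ninj1, Nlrc4, Nlrp3, Oas1a, Pfkfb3, Pfkm, Sox9, Syvn1, Treml4 and the mitochondrially encoded genes. Promoters are from the RefSeq table of GRCm38.p6, matched by gene, without chromosome 18. The alternatives tried were another pseudocount, filters, scalings, fits, the replicate block and leaving out libraries. Some genes of the lists are not reported here.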

Additional observations from a re-analysis of the deposited data

Results flagged for a closer look

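Among the 207 values checked in the 5 D0 libraries (the genes named and the marker list levels), 25 had 1 library whose distance to its nearest neighbour, as a share of the whole range of the group, passed Dixon's critical value for 5 values. Chance alone gives about 1 in 20, so some of these would be found in any such set. D0 3 was the library apart in 10 of them, D0 1 in 9, D0 4 in 5, D0 5 in 1 and D0 2 in 0. Groups of 3, such as NC, were not checked.

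In D0 3 the genes of interferon, of the Schlafen family and of the ER stood high. Slfn4 was 1320.0 FPKM there, Slfn5 281, Slfn8 110, Oas3 141 (median of the other 4 libraries 64.2), Hspa5 1716 (median of the others 1110), Calr 1636 and Acod1 10.8. H2-K1 (676 FPKM) and Rps4x (369 FPKM) were low in the same library, and so was the mean log2(FPKM + 1) of the T cell markers, at 0.767 against a median of 2.28.

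In D0 1 genes of the lysosome, of iron storage and of lipid handling stood high. Ctsd was 4574 FPKM there (median of the others 2954), Fth1 4753, Ftl1 6075, Trem2 239.7 (median of the others 136), Pltp 74.9 and Cd74 739. The mean log2(FPKM + 1) of the endothelial markers was 1.16 there, against a median of 0.845. Hp (218 FPKM, median of the others 377) and Xbp1 (140.2 FPKM) were low in it.

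In D0 4 induced genes stood high, with Osm at 154 FPKM (median of the others 96.4), Klf4 at 20.7, Il1a at 4.54, Hbegf at 1.05 and the oxidase subunit gene Ncf4 at 162. The remaining value was Cxcl12 in D0 5, low at 0.0511 FPKM against a median of 0.119. The source of these differences between libraries was not tested.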

How the results depend on the processing

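The counts of 2361 higher and 4948 lower genes depended most on scaling and on the filter for low values: 3597 were higher after median-ratio scaling, 3558 higher and 2755 lower after quantile normalization, and 3093 lower when 5 FPKM in 3 libraries was asked for, where fewer genes were tested. Leaving out 1 library at a time gave 1979 to 2330 higher and 4202 to 4822 lower, the fewest without NC 1. With the replicate number as a block the counts were 2382 and 4725, but the numbers were not shown to pair the libraries (correlations of same-numbered NC and D0 libraries of 0.07, -0.13 and 0.12). The fits on NC and D0 alone (2830 and 5810), with no filter (2389 and 6290), with a pseudocount of 0.1 (2361 and 5145) and with limma voom on the recovered fragments (2322 and 5071, chosen after seeing the data, as was leaving out NC 2 and D0 3 together) stayed within 1.5 times. Of 356 genes named by rule, 298 kept direction and call under all 19 settings, 36 lost a call and 22 gained one under at least 1 setting, and 1 reversed: Hbegf, a growth factor called lower (-0.59), was 0.0714 (adjusted p = 0.816) after quantile normalization, and the cause was not tested. A change of direction was counted only for genes called in the main fit or under that setting. Genes far below 1 FPKM rest on few fragments, such as a median of 18 per D0 library for Mmp12.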

Other observations

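The mitochondrially encoded genes went opposite to the nuclear genes of the same complexes. All 13 protein-coding genes that RefSeq places on the mitochondrial chromosome were called lower in D0 by limma (41.4% over all genes tested). Every D0 library lay below every NC library (46.6% over all genes tested). The median log2 fold change was -1.15, against 50 of 74 nuclear respiratory chain genes called higher. COX1, the catalytic subunit of cytochrome oxidase and the most abundant of them, had 3663, 3211 and 3549.5 FPKM in NC and 2095, 1902, 2184, 1852 and 1827 in D0 (log2 fold change -0.82, SE 0.15, adjusted p = 6.94e-05). ND1, a membrane subunit of complex I, had 1543, 1346 and 1436 FPKM in NC and 603, 501, 571, 581 and 550.4 in D0 (log2 fold change -1.36, SE 0.2, adjusted p = 3.61e-06), and ND6, the one protein gene on the other strand, had 57.7, 55.5 and 54.9 FPKM in NC and 13.4, 8.46, 9.31, 10.6 and 9.77 in D0 (log2 fold change -2.35, SE 0.45, adjusted p = 9.92e-05). Together the 13 genes held 1.86% to 2.33% of the summed FPKM in NC and 0.950% to 1.12% in D0. All 13 were called lower after median-ratio scaling (median -0.93), and 12 of 13 after quantile normalization and without NC 1. This set was chosen after the values were seen, and no explanation for it was tested.

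Motifs were also counted in the promoters of 3 other lists, with the window and search used in the report. The AP-1 site TGANTCA stood in 0 of 27 promoters of the immediate-early list, against 7.81% of all promoters and 5.41% of those of genes tested. The cell cycle homology element TTTGAA stood in 10 of 28 cell cycle promoters (35.7%, all promoters 17.9%, those of genes tested 12.6%). The hypoxia response core ACGTG stood in 13 of 20 hypoxia-response promoters (65%, all promoters 19.6%, those of genes tested 25.5%). An absent match says only that these letters are not in this window.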
